A study of Drosophila melanogaster with 3 samples.

Results

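The regions described here are the achi-eGFP binding peaks whose summit fell just inside a gene, at or downstream of the transcription start site (TSS) of a single protein-coding gene. They were taken from the authors' optimal list of 8998 peaks by 3 conditions. The summit lay within 500 bp of an annotated TSS, no second protein-coding gene had a TSS within 500 bp of that summit, and the summit was at or downstream of the gene's nearest TSS on the gene's own strand. The conditions used position only and no measured strength. They held for 437 peaks, 4.86% of the list (Wilson 95% interval 4.43 to 5.32%), at 411 genes. The peaks came from chromatin immunoprecipitation with sequencing (ChIP-seq) in 1 group of 3 biological replicates. These were whole Drosophila melanogaster prepupae of both sexes pooled, of unknown age, from 1 transgenic line that stably expresses achi with GFP at its C-terminus. The antibody was against GFP per the sample description, although another label gives achi as its target. All lists were made against the same control, no chromatin from untagged flies was analysed here, and whole animals mix all tissues, so that few bound cells and weak binding in many cells cannot be told apart. The labels do not say whether the replicates came from separate days or cultures of flies.

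The protein achi (achintya) is a homeodomain factor of the TALE class, the fly counterpart of the vertebrate TGIF factors, and with its close neighbour vis it is known for its part in the meiotic programme of the fly testis. TGIF-type homeodomains recognise the word TGACAG. The stretch just after a TSS is where the 5′ UTR begins, where RNA polymerase II pauses in many fly genes and where the first nucleosome usually sits. It follows a core promoter that can carry a TATA box, an initiator, a DNA replication-related element (DRE) bound by DREF, or GAGA sites bound by GAGA factor.

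Of the 437 downstream peaks, 52 held TGACAG within 100 bp of the summit, on either strand. For 7 of the 10 strongest of these peaks the word is given in capitals within 30 bases, because it is the element to which the tagged protein's class is known to bind. CTGTCA is the same word on the other strand. Each line is read 5′ to 3′ on the strand of the gene, from the Release 6 (dm6) genome.
RpL26: acgacttagagaTGACAGtgttatcgatac
Pkc98E: ttagtgtcaagcTGACAGgtggacagtacg
Kebab: cgttgccagatgCTGTCAtgtcacttacat
CG5567: tacgctgaaatcTGACAGatagtaacatag
rudhira: tgcttaactttgTGACAGttttgtttttca
eIF4A: caccccgccgtaCTGTCAaaactactgcta
CG7546: aacactgccacaCTGTCAaattccagtaat

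The RpL26 site lay at chr3L:18898840-18898869 on the plus strand, with the centre of the word 20.5 bp upstream of the TSS and 48.5 bp from the summit. The Pkc98E site lay at chr3R:29039893-29039922 on the plus strand, 77.5 bp downstream of the TSS and 13.5 bp from the summit. The Kebab site at chr2L:2045481-2045510, plus strand, and the CG5567 site at chr3L:17843529-17843558, minus strand, both lay on the TSS itself, with the word's centre 1.5 bp and 0.5 bp past it. The eIF4A site at chr2L:5982374-5982403, plus strand, was 25.5 bp past the TSS, and the first CG7546 site, at chr3L:7511013-7511042 on the plus strand, was 41.5 bp past it. The rudhira site at chrX:11818596-11818625, plus strand, was the deepest of the 7, at 273.5 bp. In the 3 of the 10 strongest whose sequence is not shown, slim, Hmgs and eIF2Bgamma, the word was 26.5, 31.5 and 45.5 bp from the summit. Over all 10 the distance ran from 1.5 bp at Kebab to 48.5 bp at RpL26. The peaks at RpL26, rudhira, eIF4A and Hmgs held 2 copies each within 100 bp of the summit. For these, the copy nearest the summit is given.

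RpL26 also held the 8-base DRE, TATCGATA, which begins right behind TGACAG with 3 bases between them. The DRE was within 100 bp of the summit in 19 of the 437 peaks, and the 4 strongest of these are shown in the same way, with the DRE in capitals.
RpL26: gatgacagtgtTATCGATActagctgaatt
cnc: ttacagtgcacTATCGATAtggaggaccca
CG2200: cgtgagtttccTATCGATAtcgaagaactc
Prx3: cgccacataatTATCGATAgccaacctcaa
These 4 lay at chr3L:18898850-18898879 on the plus strand, chr3R:23190146-23190175 on the minus strand, chrX:13094287-13094316 on the plus strand and chr3R:17546550-17546579 on the minus strand. The cnc gene encodes a stress-response transcription factor and Prx3 a mitochondrial peroxiredoxin. Their peaks ranked 1683 and 3424 of 8998.

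The summits crowded towards the TSS. The median distance was 131 bp, with quartiles at 42 and 303 bp. In bins of 50 bp the first held 119 peaks, the second 64 and the third 52, and from 150 bp onwards each bin held between 20 and 34. The bin just upstream of the TSS held 216 single-gene summits and the next 4 upstream bins between 195 and 215, so the count per bin was 216 on one side of the TSS and 119 on the other. Over both sides there were 1615 upstream peaks, 3.70 for each downstream one. The position at the boundary was narrow: 40 peaks had their summit 0 to 9 bp downstream and were counted here, and 45 had it 1 to 10 bp upstream and were not. At the far end, 3 summits lay 491 to 500 bp downstream and 8 lay 501 to 510 bp downstream.

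**Figure D1:**
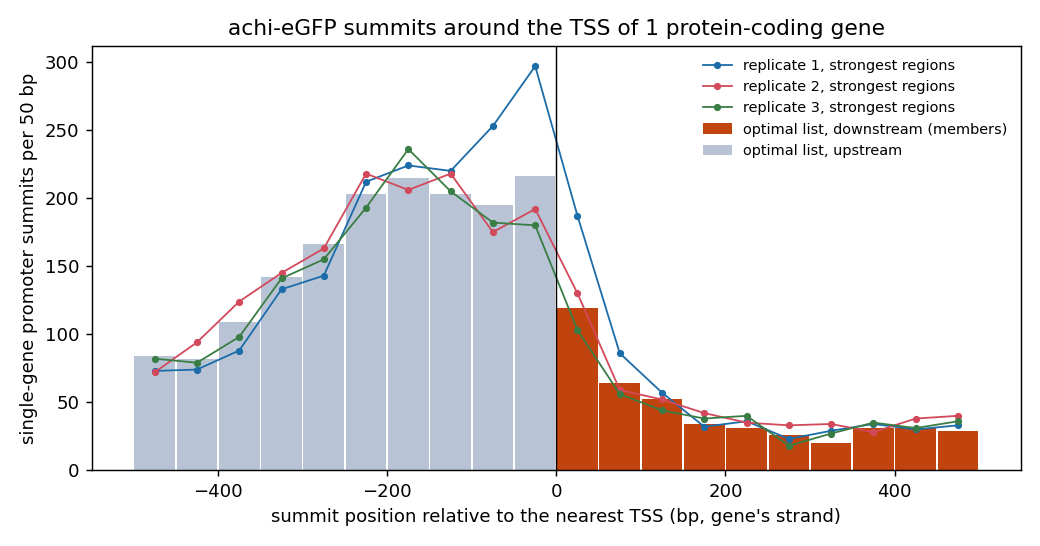
Number of summits per 50 bp (vertical axis) against position relative to the nearest TSS on the gene's strand (horizontal axis, bp), for peaks within 500 bp of the TSS of 1 protein-coding gene. Bars are the optimal list, with the 437 downstream peaks in orange, and lines are the 8998 strongest regions of each replicate. The first downstream bin holds 119 optimal summits, and within 100 bp of the TSS replicate 1 stands above the other replicates on both sides.

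The replicates' own summits fell on the same side in most cases. A replicate region overlapped 436 of the 437 peaks in replicate 1, all 437 in replicate 2 and 431 in replicate 3, and its nearest summit was a median of 13.5, 15 and 18 bp away. That summit was also at or downstream of the TSS in 91.1%, 92.2% and 90.02% of cases (mean 91.1% ± 1.10, SD, n = 3 replicates). In 346 peaks (79.2%) the summits of all 3 replicates were on the downstream side. The side was less certain close to the TSS: all 3 replicates placed the summit downstream in 51 of the 119 peaks under 50 bp (42.9%) and in 295 of the 318 peaks at 50 bp or more (92.8%). Because these replicates went into the optimal list, the counts describe how tightly a summit was placed and are no independent test.

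Each replicate's list was also sorted by the same conditions. Among its 8998 strongest regions, called its top list here, replicate 1 had 547 single-gene downstream regions, replicate 2 had 491 and replicate 3 had 428 (mean 489 ± 59.5, SD, n = 3). The number of upstream regions per downstream region was 3.14, 3.27 and 3.62 (mean 3.35 ± 0.2504). Replicate 1 stood apart close to the TSS, with 187 top-list summits in the first 50 bp downstream against 130 in replicate 2 and 103 in replicate 3. Within 100 bp on either side it had 818 single-gene summits, and the others had 552 and 515.

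By annotation, 290 of the 437 summits (66.4%) lay in the 5′ UTR of the gene, 128 (29.3%) in an intron, 16 (3.66%) in a coding exon and 2 in a 3′ UTR. The last, at CG43815, lay outside the annotated gene body. The nearest TSS was the gene's most 5′ one in 267 peaks (61.1%) and an internal one in the rest. The genes were long and had several TSSs. Their median length was 6247 bp, against 5900 bp for genes with a single-gene upstream peak and 2166 bp for all 13945 protein-coding genes. Of the 411 genes, 32.8% had 1 annotated TSS, against 44.7% of genes with an upstream peak and 73.5% of all genes. A gene with more TSSs offers more positions, on either side of a TSS, at which a summit can be counted. The part of this in the shares was not tested. Some 92 of the 411 genes (22.4%) also had an upstream single-gene peak, against 9.85% of all protein-coding genes. The arms held 97 peaks on X, 93 on 3L, 87 on 2R, 86 on 3R, 73 on 2L and 1 on chromosome 4. The share on X was 22.2%, and that of all optimal peaks was 18.7%. A TSS of a non-coding RNA gene of the class ncRNA lay within 500 bp of 24 of the summits, and a snoRNA start of 3. Such starts were not counted for other peaks.

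Downstream peaks ranked below the other promoter peaks in all 3 replicates. Strength was compared by percent rank, which places a peak by the signal of the strongest overlapping region in a replicate's own list of 30000 regions, with 100 the strongest and 0 given where no region overlapped. The median of the 437 was 83.9 in replicate 1, 82.8 in replicate 2 and 81.8 in replicate 3. For upstream peaks it was 88.5, 88.6 and 87.4, and for the 876 peaks with TSSs of 2 or more genes within 500 bp, here called shared promoters, which include divergent gene pairs, it was 91.8, 91.0 and 90.4. Downstream peaks were lower than upstream peaks in percentage points (downstream minus upstream -5.30 ± 0.677, SD, lower in 3 of 3 replicates) and lower than shared promoters by more (-8.23 ± 0.368, lower in 3 of 3). The exact sign-flip permutation test over 3 replicates, two-sided, gave p = 0.25 for each, the smallest value that 3 replicates allow. Over all peaks the difference from upstream peaks was -4.53 in replicate 1 and -5.54 in replicate 3. The run without replicate 2 gave -3.3, but it kept only peaks in both other top lists (299 of the 437). In the stronger 50% of the optimal list the difference from upstream peaks was -1.35, and that from shared promoters was -1.58. Between the replicates the class medians varied by 0.70 to 1.06 (SD), less than either difference. Peaks farther than 500 bp from any protein-coding TSS had medians of 83.7, 84.2 and 85.1, above the downstream peaks in replicates 2 and 3 and below them in replicate 1.

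**Figure D2:**
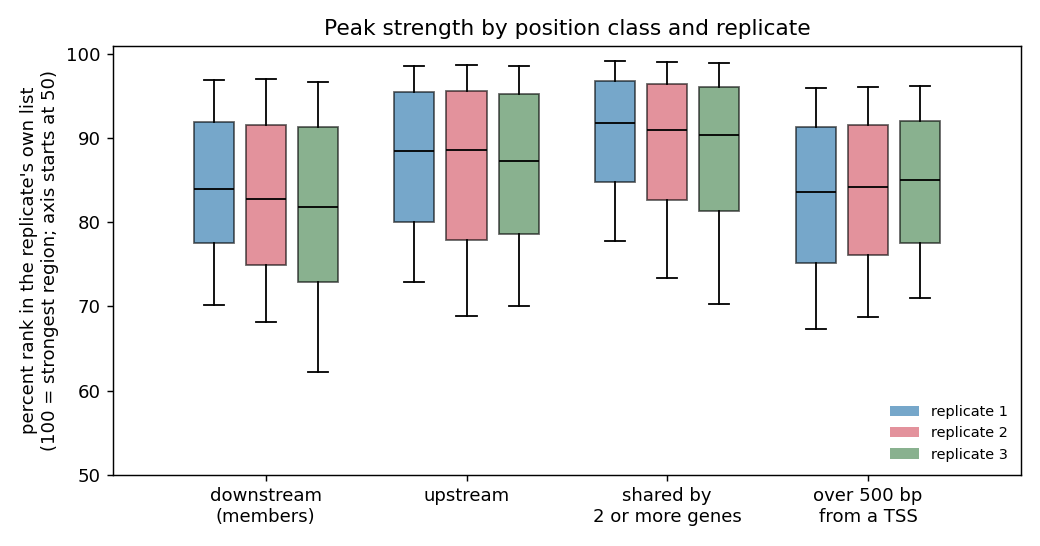
Percent rank in each replicate's own list (vertical axis, 100 is the strongest of 30000 regions, axis from 50) for the optimal peaks of each position class, by replicate. Boxes span the quartiles with the median as a line, and whiskers reach the 10th and 90th percentiles over peaks. The medians of the downstream peaks (81.8 to 83.9) lie below those of the upstream peaks (87.4 to 88.6) in every replicate.

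On the optimal list the median rank of the downstream peaks was 5713 of 8998, and 166 of them (38.0%) were in the stronger 50% of the list, against 55.5% of upstream peaks and 68.5% of peaks in shared promoters. The strongest regions were still represented: 5 were among the first 100 optimal peaks, 9 among the first 250 and 37 among the first 1000. Of the 437, 263 (60.2%, Wilson interval 55.5 to 64.7%) had their summit in every replicate's top list, and 72.1% of all optimal peaks did. Another 130 were in 2 top lists, 43 in 1 and 1 in none. That one, at kdn, the citrate synthase gene, ranked 8483 and had percent ranks of 68.4, 69.1 and 70.0. By replicate, 87.9% of the downstream peaks were in the top list of replicate 1, 84.2% in that of replicate 2 and 77.8% in that of replicate 3. The SD of percent rank over replicates had a median of 0.746 in the 100 strongest of the 437 and 6.91 in the 100 weakest. Percent rank cannot exceed 100, and the strongest were chosen on a list made from these replicates. A smaller SD among them is therefore partly built in and is no test of agreement.

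By distance, peaks 300 to 399 bp into the gene (n = 51) had a median optimal rank of 3403, whereas those at 0 to 99 bp (n = 183) had 5915, those at 100 to 199 bp (n = 86) 5842.5 and those at 200 to 299 bp (n = 57) 6212. In the 300 to 399 bp bin the replicate medians were 90.2, 88.9 and 88.7, above every replicate median of the other downstream bins. Upstream peaks at the same distance (n = 250) had a median optimal rank of 3839 and replicate medians of 88.2, 90.7 and 89.3. In this bin downstream peaks were thus higher in replicate 1 and lower in replicates 2 and 3. In the other bins downstream peaks were lower than upstream peaks in every replicate. Close to the TSS replicate 1 gave higher values than the others. For the 119 peaks under 50 bp the medians were 84.9, 79.4 and 77.4, and 76 of them had their highest percent rank in replicate 1. For the 318 peaks farther in the medians were 83.9, 83.7 and 83.4, and 125 were highest in replicate 1. The 212 upstream peaks within 50 bp of the TSS showed the same order, with 89.5, 85.5 and 83.6. The part of replicate 1 in the comparisons that include peaks at the TSS was not tested. With only summits 50 bp or more from the TSS the difference between downstream and upstream peaks was -4.78, lower in 3 of 3 replicates.

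The strongest downstream peak was at RpL26, a protein of the large ribosomal subunit, 28 bp past the TSS on chromosome 3L. It ranked 6 of 8998, with ranks of 8, 5 and 6 in the replicate lists and signals of 2093, 2058 and 1700, the authors' enrichment score. Pkc98E, a protein kinase C, was second, 64 bp past an internal TSS, at rank 10 and at 14, 11 and 9 in the replicates. Both were among the first 14 regions of every replicate.

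Atxn7, the fly Ataxin-7 of the SAGA chromatin complex, had a summit 11 bp past an internal TSS and ranked 45, with replicate ranks of 43, 49 and 39. PNPase, the mitochondrial polynucleotide phosphorylase, followed at 47 with ranks of 46, 54 and 41. GstE13, a glutathione S-transferase, ranked 98. Neither Atxn7 nor PNPase nor GstE13 had TGACAG within 100 bp of the summit. Kebab, which encodes a microtubule and kinetochore protein, ranked 129, with its summit on the TSS itself; replicate 3 placed it 20 bp upstream. The next were slim at 134, CG5567 at 165 and ph-p at 207, with hng3 at 283 and CG9399 at 308.

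Among the rest of the 15 strongest, pnut, a septin, ranked 335 with its summit at 129 bp. The phospholipid scramblase gene scramb2 ranked 374, CG31612 ranked 382, and SCOT, an enzyme of ketone body use, ranked 432. SCOT was the least even of these, with ranks of 367, 831 and 335 in replicates 1, 2 and 3. In 14 of the 15 strongest the summits of all 3 replicates were at or downstream of the TSS. The 4 with summits more than 300 bp from the TSS, ph-p at 410 bp, hng3 at 429 bp, scramb2 at 374 bp and CG31612 at 461 bp, had no TGACAG at the summit.

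Some 26 genes had a pair of downstream peaks, at different TSSs or at the same one. Eip75B, a nuclear receptor induced by ecdysone, had a peak 21 bp past 1 TSS at rank 545, with percent ranks of 97.8, 98.7 and 97.7, and another 192 bp past a second TSS at rank 6223, with 81.4, 62.5 and 83.4. The gene puc, a phosphatase that acts on the JNK pathway, had peaks 7 bp and 1 bp past its 2 TSSs, at ranks 608 and 5935. CG7546 had summits at 26 and 234 bp from the same TSS at ranks 747 and 5624; the same replicate regions overlapped both, so their percent ranks (97.5, 98.2 and 96.5) are a single value.

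The gene encoding the tagged protein was not among the 411. The peak at achi that ranked 24 was 307 bp upstream of the nearest achi TSS, and a weaker one at rank 989 lay in the promoter shared with CG13151. The nearest vis peak ranked 1706, 194 bp upstream.

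TGACAG was found in 11.9% of the downstream peaks (52 of 437, Wilson interval 9.19 to 15.3%). The share was 10.3% in upstream peaks (166 of 1615) and 14.4% in shared promoters (126 of 876), and 7.84% over all optimal peaks. In a two-sided Fisher's exact test against upstream peaks the odds ratio was 1.18 (0.829 to 1.65, 95% interval), with p = 0.336 and an adjusted p of 0.523 over 28 tests of 14 words. The same exact test against shared promoters gave 0.804 (0.557 to 1.15), with p = 0.232 and an adjusted p of 0.432. Neither difference passed the threshold of 0.05, and the intervals allow a share in downstream peaks somewhat above or below that in either class. Both odds ratios changed direction under other definitions of the window or the TSS, and that against shared promoters passed the threshold of the same exact test with a word window of 200 bp (0.641, adjusted p = 0.0127) or a TSS window of 1000 bp (0.652, adjusted p = 0.0135).

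In the downstream peaks' own surroundings the word was less frequent. Windows of the same 201 bp held TGACAG in 5.72% of cases 1000 bp towards the upstream side and in 7.32% 1000 bp farther into the gene. Around the most 5′ TSS of all 13945 protein-coding genes the share was 8.81%. With the replicates' own summits for the same peaks the share was 11.7%, 11.4% and 11.1% (mean 11.4% ± 0.281, SD, n = 3). In the downstream regions of the replicates' top lists it was 9.69%, 11.0% and 11.7%, higher than in their upstream regions in 2 of 3 replicates (difference 0.519 ± 1.29 percentage points, exact sign-flip permutation p = 0.5).

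The word kept to no single strand. The 52 peaks held 61 copies, 9 peaks having a pair of them, and 27 copies (44.3%) were on the gene's strand. Of the 61, 39 lay within 50 bp of the summit and 21 within 25 bp. By position, 14 were upstream of the TSS, 22 were 0 to 100 bp past it and 25 were deeper.

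The share of peaks with the word was 16.4% (30 of 183, Wilson interval 11.7 to 22.4%) for summits in the first 100 bp and between 5.0% and 12.3% in the 4 bins beyond, with intervals that overlap. On the upstream side the first 100 bp also had the highest share, 20.6% (84 of 407, 17.0 to 24.8%), and the other bins had 5.20 to 9.58%. Of the 52 downstream peaks with the word, 30 thus had their summit in the first 100 bp.

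**Figure D3:**
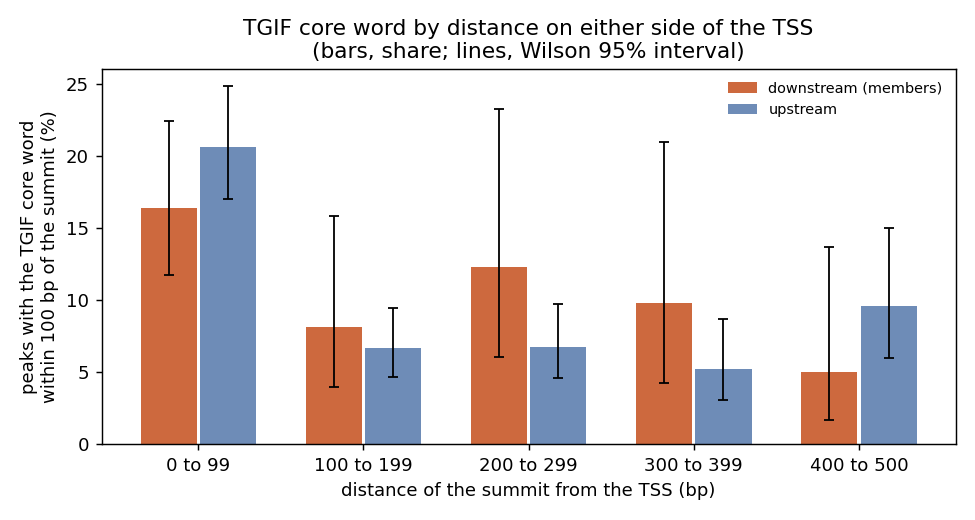
Share of peaks with the TGIF core word within 100 bp of the summit (vertical axis, %) in bins of summit distance from the TSS (horizontal axis, bp), for the 437 downstream peaks in orange and the 1615 upstream peaks in blue. Lines are Wilson 95% intervals over peaks. The first bin is highest on both sides, at 16.4% and 20.6%.

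Among the strongest downstream peaks the word was in 5 of the first 10, 7 of the first 25, 11 of the first 50 and 15 of the first 100. Among upstream peaks, whose first 100 stand far higher on the optimal list (to rank 266, against 2686), it was in 7, 15, 27 and 31. At matched places on the optimal list, the first 250 optimal peaks held 9 downstream peaks, 5 with the word (55.6%, interval 26.7 to 81.1%), and 93 upstream peaks, 29 with it (31.2%, 22.7 to 41.2%). Past the first 250 the share in downstream peaks was between 7.78% and 14.3% in each of 4 rank ranges. The median percent rank of peaks with TGACAG was above that of peaks without it by 2.18, 3.60 and 2.93 points in the 3 replicates (mean 2.91 ± 0.710, above in 3 of 3, exact sign-flip permutation p = 0.25, the smallest possible). It was 1.31 without replicate 2. This difference was 3.87 ± 0.271 in upstream peaks and 4.47 ± 0.793 in shared promoters. In downstream peaks its direction turned with only summits 50 bp or more from the TSS (-0.948) and with a TSS window of 1000 bp (-0.531), and with a word window of 200 bp it was -0.00278. It was larger with a word window of 50 bp (7.33), a TSS window of 200 bp (6.79), the most 5′ TSS alone (4.91) and genes with 1 TSS (4.65).

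Differences past the threshold were found for other words. The TATA-box word TATAAA, on either strand, was in 91 of the 437 (20.8%, interval 17.3 to 24.9%), in 575 of the upstream peaks (35.6%) and in 371 of the peaks in shared promoters (42.4%). Over all optimal peaks its share was 37.2%. In the downstream peaks' own flanks it was 26.5% at 1000 bp towards the upstream side. At 1000 bp farther into the gene it was 20.1%, close to the share at the summits. The odds ratio was 0.476 against upstream peaks (0.365 to 0.615; Fisher's exact test, adjusted p = 2.32e-08) and 0.358 against shared promoters (0.271 to 0.471; adjusted p = 1.23e-13). It was the only one of the 13 other words to pass the threshold against upstream peaks. In the replicates' top lists downstream regions held it less often than upstream regions by 14.5, 17.1 and 13.2 percentage points, lower in 3 of 3 (mean -14.9 ± 2.00, exact sign-flip permutation p = 0.25).

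Base composition moved with it. The median GC content of the 201 bp around the summit was 41.3% in downstream peaks, 35.3% in upstream peaks and 33.8% in shared promoters; its part in the word shares was not tested. Within the downstream peaks it was 43.8% for summits in the first 100 bp and 35.3% for those at 400 to 500 bp, and the shares with TATAAA were 18.6% and 31.7%. As a core promoter element, 15 to 45 bp upstream of the TSS on the gene's strand, TATAAA was present at 8 of the 426 TSSs of the downstream peaks (1.88%), at 3.85% of those of the upstream peaks and at 8.81% of the most 5′ TSSs of all genes.

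Counted from the TSS and not from the summit, other words gave other shares. The DRE, on either strand from 200 bp upstream to 100 bp downstream, was at 10.3% of the TSSs of the downstream peaks (Wilson interval 7.78 to 13.6%), at 5.24% of those of the upstream peaks (4.22 to 6.48%) and at 8.87% over all genes. TCAGT on the gene's strand within 10 bp of the TSS was at 15.3% (12.2 to 19.0%), 20.6% (18.7 to 22.7%) and 12.2%. GAGAG in the 200 bp upstream of the TSS was at 38.0%, 40.7% and 22.2%, and TGACAG within 100 bp of the TSS at 11.3%, 9.42% and 8.81%. These differences were not tested.

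Against shared promoters 6 of the 13 other words passed the threshold, 4 lower and 2 higher. Lower in downstream peaks, besides TATAAA, by Fisher's exact test, were the DRE TATCGATA (4.35% against 10.4%, odds ratio 0.392, adjusted p = 5.86e-04), its core ATCGAT, which every DRE contains (11.2% against 20.8%, 0.482, adjusted p = 8.35e-05), and the homeodomain word TAATTA (11.2% against 22.7%, 0.430, adjusted p = 2.11e-06). Higher were GAGAG, the GAGA factor word (32.5% against 14.2%, odds ratio 2.92, adjusted p = 4.15e-13), and TCAGT, the core of the initiator (38.0% against 28.5%, 1.53, adjusted p = 0.00266), by the same exact test. Over all optimal peaks the DRE was in 2.30%, its core in 7.32%, TAATTA in 17.2%, GAGAG in 22.5% and TCAGT in 35.8%. In the downstream peaks' flanks, 1000 bp upstream and 1000 bp farther in, the DRE was in 0.915% and 0.458%. Its core was in 7.55% and 5.95% there. The DRE and its core were thus more frequent in downstream peaks than over all optimal peaks or in these flanks, which was not tested. The TATA-box, homeodomain and GAGA factor words were called in every alternative run. TCAGT was no longer called without replicate 1, in the stronger 50% of peaks, with the most 5′ TSS alone, with a word window of 200 bp and in genes with 1 TSS. The DRE was lost with a TSS window of 200 bp, the most 5′ TSS alone, a word window of 50 bp and genes with 1 TSS, and its core with the first and the last of these.

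At the summits those 5 words did not differ between downstream and upstream peaks beyond the threshold. GAGAG was in 32.5% and 27.9% (odds ratio 1.25, interval 0.984 to 1.57, adjusted p = 0.202), TCAGT in 38.0% and 33.1% (1.24, 0.986 to 1.55, adjusted p = 0.202) and the DRE in 4.35% and 4.52% (0.960, 0.541 to 1.63, adjusted p = 1), by Fisher's exact test. With the most 5′ TSS of each gene alone, GAGAG and TCACACT, the core of the promoter element Motif 1, were called higher in downstream peaks. Of the 19 downstream peaks with a DRE, 17 had their summit in the first 100 bp. The share of GAGAG was 22.2% and 24.9% in the flanks 1000 bp to either side. Around the most 5′ TSS of all protein-coding genes, in windows of the same length, GAGAG was in 22.5%, TCAGT in 42.8%, TATAAA in 29.2%, TAATTA in 9.95%, the DRE in 7.84% and its core in 18.9%. The remaining words, not called in either comparison, were CAGCTG and CACGTG, which are E-boxes, AGGTCA, a nuclear receptor half-site, CAGGTAG, the Zelda site, GTGTA, and TTGACAG, each match of which also holds TGACAG. Against shared promoters some of these were gained in alternatives: GTGTA was called higher with a TSS window of 1000 bp and with a word window of 200 bp, TTGACAG lower with the first and CAGCTG lower with the second.

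**Figure D4:**
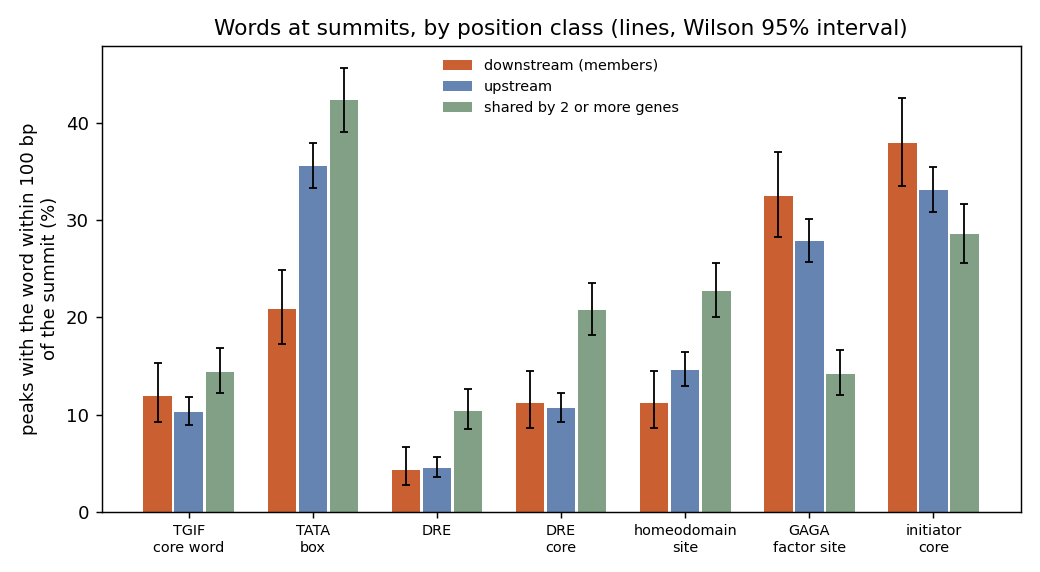
Share of peaks with a word within 100 bp of the summit (vertical axis, %) for 7 of the 14 words (horizontal axis, by the element's name), in downstream peaks, upstream peaks and peaks in promoters shared by 2 or more genes. Lines are Wilson 95% intervals over peaks. The TATA box is lowest in downstream peaks (20.8% against 35.6% and 42.4%), and the GAGA factor site is higher there than in shared promoters (32.5% against 14.2%).

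Ranked by how much more often they occurred at the summit than in the flanks, the first hexamers of the downstream peaks were rich in CG. CGAGCG was in 13.3% of the peaks and 4.58% of the flanks, a ratio of 2.90, and AACGCG in 11.0% and 3.89%, a ratio of 2.82. CTGACA, which overlaps TGACAG by 5 letters, was 10th of 2078 (10.3% and 4.69%), and TGACAG itself was 36th (11.9% and 6.52%, a ratio of 1.82). This ranking is a description of these windows, with no test. The summit windows were centred on summits of which 290 lay in the 5′ UTR, 128 in an intron and 16 in a coding exon.

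The gene lists showed where such peaks fell. Over all protein-coding genes, 2.95% had a downstream peak, 9.85% an upstream peak, 11.7% a peak in a shared promoter and 23.2% any promoter peak. Of 86 genes for cytoplasmic ribosomal proteins, 10 had a downstream peak (11.6%), 26 had an upstream peak and 33 a peak in a shared promoter. Any promoter peak was found at 66 of the 86 (76.7%), so the list stood above all genes for promoter peaks in general. The 10 were RpL5, RpL7A, RpL12, RpL17, RpL23, RpL26, RpS15, RpS15Aa, RpS28b and RpS29. All 10 summits were within 28 bp of the TSS, in the 5′ UTR. RpL26 aside, they were weak or moderate, with optimal ranks from 2745 for RpL17 to 8767 for RpS15. RpL23 had the second highest mean percent rank, 91.5, 89.9 and 89.3 in the replicates, although its own summit ranked only 8721.

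The percent ranks of these ribosomal peaks were mostly highest in replicate 1. In 9 of the 10 the highest percent rank was in replicate 1, and the medians over the 10 were 90.4, 75.2 and 73.3. RpS29 went from 88.5 in replicate 1 to 63.3 and 44.3, and RpL17 from 95.2 to 86.5 and 81.4. All 10 were in the top list of replicate 1, 5 in that of replicate 2 and 5 in that of replicate 3. Sorted by their own summits, the top lists were more even. Replicates 1, 2 and 3 gave 11, 11 and 9 ribosomal protein genes with a downstream region. In only 2 of the 10, RpL26 and RpS15Aa, did all 3 replicates place their own summit downstream. When the peak had to be in the top lists of 2 replicates, 4 genes were left without replicate 1, 5 without replicate 2 and 5 without replicate 3. In the stronger 50% of the optimal list 2 genes were left, and none with summits 50 bp or more from the TSS. The number of genes rose to 13 with a TSS window of 200 bp and to 15 with the most 5′ TSS alone. It fell to 3 with a TSS window of 1000 bp and to 3 for genes with 1 TSS. The part of replicate 1 in this count was not tested.

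The other housekeeping lists ranged from none of their genes to 12.1%, beside the 2.95% over all genes. None of 73 mitochondrial ribosomal protein genes had a downstream peak, although 25 had a peak in a shared promoter, and none of 48 proteasome genes; in lists of this size the share over all genes comes to few genes. Of 54 translation factor genes 3 did: eIF4A, the RNA helicase of cap-dependent initiation, at rank 462 (429, 387 and 655 in the replicates), eIF2Bgamma at 1069 and eEF5 at 2087. All 3 were within 47 bp of the TSS and in every replicate's top list. The replicates' own summits were all downstream at eIF4A only. At eIF2Bgamma they lay at -1, -1 and -36 bp from the TSS, upstream in each replicate, and at eEF5 at -25, 14 and -38 bp. Sorted by their own summits, the top lists of replicates 1, 2 and 3 gave 2, 4 and 2 translation factor genes with a downstream region. Of 33 genes of the vacuolar ATPase, the proton pump of endosomes and lysosomes, 4 had one (12.1%): VhaAC39-1, Vha100-2, VhaSFD and Vha13. The replicate values of VhaAC39-1 (99.6, 99.5 and 99.3) came from a stronger overlapping region, since its own summit ranked 3217. Of the 33 vacuolar ATPase genes, 12 (36.4%) had any promoter peak, against 23.2% over all genes.

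Single members of the remaining metabolic lists were TrpRS-m, a mitochondrial tryptophanyl-tRNA synthetase, at rank 1744, and SrpRbeta, of the signal recognition particle receptor, at 6703. The respiratory chain list had 2 of 92 genes, SdhD of succinate dehydrogenase at rank 6950 and COX7AL2 at 7013. Hmgs, the HMG-CoA synthase gene of the mevalonate pathway, was in no list but among the 10 strongest peaks with TGACAG, at rank 676 and 14 bp past its TSS.

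The list with the highest share was that of Polycomb and trithorax genes, which keep developmental genes silent or active. Of its 27 genes, 7 had a downstream peak (25.9%), 4 an upstream peak and 3 a peak in a shared promoter. Any promoter peak was found at 13 of them (48.1%), against 23.2% over all genes. ph-p, polyhomeotic proximal of Polycomb repressive complex 1, was strongest at rank 207, with percent ranks of 99.1, 99.2 and 99.6. Trl, which encodes GAGA factor, ranked 910 with 96.7, 97.5 and 96.7. The other 5 were lolal, a BTB-domain protein, at 1902, Utx, a histone H3K27 demethylase, at 3851, Psc, another subunit of Polycomb repressive complex 1, at 5454, ash2, of histone H3K4 methyltransferase complexes, at 6381, and kis, a chromodomain helicase, at 6801.

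These 7 lay deeper than the ribosomal ones. Their summits were 68 to 410 bp into the gene, 5 in the 5′ UTR and 2, ash2 and kis, in an intron, and none held TGACAG within 100 bp. The replicates were even for this list, with medians of 88.2, 86.6 and 87.0, and 7, 6 and 6 of the peaks in the top lists. The count of list genes with a downstream peak was 5, 6 and 6 without replicates 1, 2 and 3 in turn. It depended on internal starts: with the most 5′ TSS of each gene alone it was 3, none of the 7 genes has a single annotated TSS, and it was 4 in the stronger 50% of the optimal list.

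**Figure D5:**
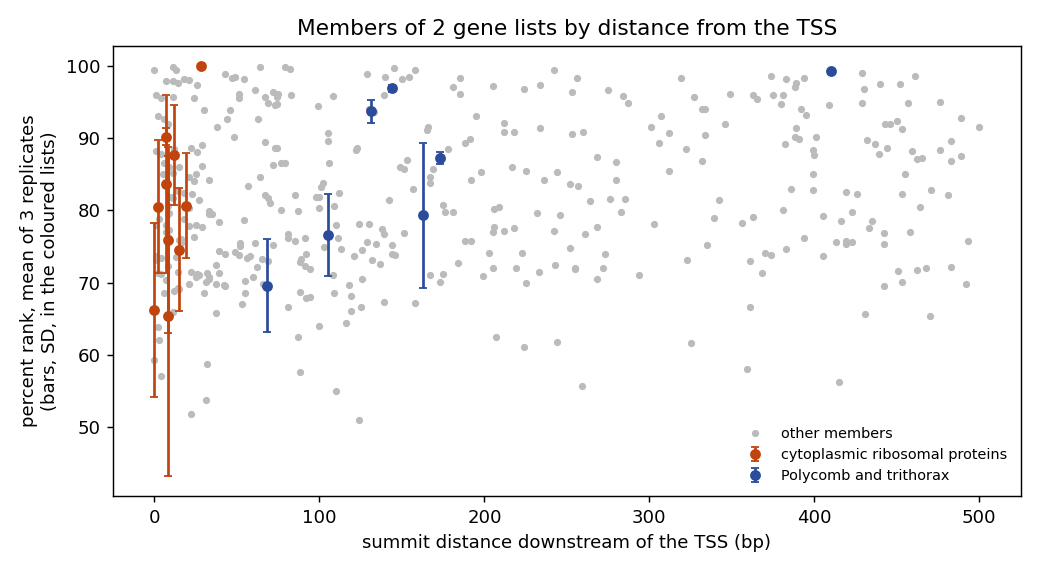
Mean percent rank over 3 replicates (vertical axis, 100 is the strongest) against summit distance downstream of the TSS (horizontal axis, bp) for the 437 downstream peaks. Ribosomal protein genes are in orange and Polycomb and trithorax genes in blue, each with its SD over replicates (n = 3). The 10 ribosomal peaks lie within 28 bp of the TSS and all but RpL26 have wide error bars, apart from RpL23; the 7 Polycomb and trithorax peaks lie between 68 and 410 bp.

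Of 22 genes of the response to ecdysone, the hormone that drives metamorphosis, 3 (13.6%) had a downstream peak: Eip75B, with the pair given above, Hr78, a nuclear receptor gene, at rank 1119 with percent ranks of 95.3, 96.6 and 96.7, and Eip63E at 8957. Each replicate's own top list also gave 3 genes of this list. In the Hippo growth pathway, Mer, the Merlin gene upstream in the pathway, ranked 1570, and mats, a cofactor of the Warts kinase, ranked 2870 with its summit at 483 bp, 2 of 15 genes. Of 33 genes for actin, myosin and septins 4 had one, each found in every replicate's top list: the septins pnut and Septin2 (rank 737), sqh, the myosin regulatory light chain, at 1139, and Moe, moesin, at 5495. In these 3 lists 59.1%, 73.3% and 42.4% of the genes had any promoter peak, against 23.2% over all genes.

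The other pathway lists had 0 to 2 genes each, beside the 2.95% over all genes, which in lists this short comes to about as few. They were shn, a zinc finger factor of the Dpp pathway, at 4146 (1 of 28 TGF-beta and BMP genes), mam, the Notch coactivator Mastermind, at 5006 (1 of 23), and csw, the phosphatase Corkscrew of receptor tyrosine kinase signalling, at 6464 (1 of 24). No gene of the 25 in the Wnt list had a downstream peak, although 7 had an upstream peak. The cell cycle list had 2 of 31, Dp, the E2F partner, at 1522 and CycA, cyclin A, at 8972. Diap1, the inhibitor of apoptosis, at 8524 and DnaJ-1, a heat shock cochaperone, at 7680 were the only ones of their lists (28 and 18 genes). The values of Diap1 were the least even of those named, at 32.8, 81.9 and 78.3.

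None of 97 cuticle protein genes, 119 chemoreceptor genes, 19 sarcomere genes, 24 genes of synapses and channels and 7 TALE homeobox genes had a downstream peak, and at the 2.95% over all genes few would be counted in lists of these sizes. For the first 2 lists an upstream peak was found at 1 gene each, and for the TALE genes at 2.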

How the data were processed

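The starting point was the peak lists of 3 biological replicates and the optimal list that the authors made from these and the pooled data by irreproducible discovery rate. The labels name 1 control for all lists; for aligner and caller the sources used here give nothing, and read depth is likewise not given, so the depth behind a value is unknown. Each list gives the authors' deposited signal, a score of enrichment that served here to order the regions of each list, and the authors' -log10 q-value, which was at its maximum in 310 of the 437 downstream peaks and was not used. Coordinates are dm6. Genes and TSSs came from Ensembl release 115, and sequence from the Release 6 assembly. Overlaps needed 1 bp. A word counted when either strand held it no more than 100 bp from a summit, and shares were compared by two-sided Fisher's exact tests, adjusted by Benjamini-Hochberg over 28 tests at a threshold of 0.05. Neighbouring peaks can share bases, and intervals cover counting error only. Values per replicate were compared by exact sign-flip permutation. With 1 group, no comparison of conditions was possible. The members, words and 24 gene lists were chosen with earlier results of these data known; 8 list symbols matched no gene, and the kinase gene Srpk79D, caught by its name alone, was taken out of the signal recognition particle list after counts were seen. Genes were named by rule: the 15 strongest peaks, the 10 strongest with TGACAG, 2 per list by mean percent rank, the first 3 genes with a pair of peaks, and the strongest in no top list; further list members were named after their values were seen. Code was tested on simulated data. Python 3.11.15 was used with numpy 2.4.6, scipy 1.17.1 and matplotlib 3.10.9. Alternatives are in the closing section.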

Additional observations from a re-analysis of the deposited data

How the results depend on the processing

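The share of downstream peaks among optimal peaks was 3.62% with a TSS window of 200 bp, 8.09% with 1000 bp, 4.17% with the most 5′ TSS alone, 3.69% in the stronger 50% of peaks and 4.15 to 4.63% with 1 replicate left out. Their share in all top lists was 67.3% with 1000 bp, 96.4% in the stronger 50% and 67.7 to 74.1% with 1 replicate left out, where 2 lists are asked for. Every other result with 1 replicate left out covers only peaks in the top lists of both other replicates. The median distance was 56.5, 460, 126 and 166 bp in those first 4 settings and 130 to 167 bp with 1 replicate left out, and the replicates' summits were downstream in 85.2% (200 bp), 95.9% (1000 bp), 93.5% (stronger 50%) and 92.7 to 93.1% (1 replicate left out). The next restrictions were chosen after seeing the data. Summits 50 bp or more from the TSS gave a share of 3.53%, a median of 212 bp and 97.9% downstream; genes with 1 TSS gave 1.56%, 98.5 bp and 84%.

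The lower rank than upstream and shared promoter peaks kept its direction in every setting run (-1.35 to -5.64 and -1.58 to -9.96); leaving out a replicate allows no p below 0.5. The TGACAG odds ratio against upstream peaks was 0.98 at 200 bp. Against shared promoters it was 1.01 at 200 bp, 1.01 with the most 5′ TSS, 1.36 for genes with 1 TSS, 0.652 at 1000 bp and 0.641 with a word window of 200 bp, the last 2 past the threshold. The rank difference with and without TGACAG was -0.531 at 1000 bp, -0.00278 with a word window of 200 bp and -0.948 for summits 50 bp or more away. Of other words, 3 and not 1 were called against upstream peaks with the most 5′ TSS, and 3 and not 6 against shared promoters for genes with 1 TSS. The cause was not tested. Keeping 1 summit per interval, or ranking by the region that holds the summit, changed the direction or call of no result. No paired analysis was possible because there is a single group.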
